A study of Mus musculus with 6 samples.

Results

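The genes described here are 34 genes of mature oligodendrocytes and myelin. The rule that chose them used symbols and no measured values, but earlier results of these data were known. All 34 had rows in the deposited table, where 71 RefSeq transcripts were summed to 34 of 24532 genes. The libraries were made from messenger RNA of the nucleus accumbens core of adolescent male wild-type mice, labelled with postnatal days 35 to 55. The 3 ethanol samples and the 3 control samples are told apart by their titles, since the treatment field names ethanol exposure for all 6. The labels describe context fear conditioning, a day of 6 intraperitoneal injections of 20% ethanol over 6 h (1.8 g/kg first, 1.2 g/kg afterwards), extinction trials, and 27 days of alcohol drinking with access on alternate days. They put tissue collection 24 h after the drinking assay, and they do not tell which steps or injections the control mice received. The labelled range of postnatal days is shorter than the 27 days of drinking. Whether the mice were still adolescent at collection is therefore uncertain. The tissue is labelled as mixed in cell type. Whether each library came from its own mouse is not stated, so the tests weigh differences against a spread among libraries that could be technical.

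Oligodendrocytes wrap axons of the central nervous system in myelin, a stack of membrane rich in cholesterol and galactolipids that speeds conduction and feeds the axon. The transcription factors Sox10 and Myrf drive the maturation of the cell, and its membrane is then packed with a small number of very abundant proteins, among them myelin basic protein (Mbp), which holds the cytoplasmic faces of the membrane together. In the ventral striatum these cells sit among the projection neurons and in the anterior commissure, a myelinated tract that the accumbens core surrounds. In bulk tissue, fewer oligodendrocytes and less myelin RNA per oligodendrocyte cannot be told apart.

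The libraries held between 35898026 and 67399599 estimated reads, and each member had from 1034 to 861817 reads in a library, so that counting error was small beside the spread between samples. Between 15924 and 17707 genes had reads in a library, with the lowest number in control 2. Levels between genes are given in FPKM (reads per 1000 bases of transcript and 1000000 reads, the authors' values summed over a gene's transcripts). Differences between groups are given in CPM, counts per 1000000 reads after TMM scaling, which is scaled independently of the FPKM values. The 5 Schwann cell markers, which would mark peripheral myelin, summed to 5.88 to 10.1 CPM in the ethanol libraries and 4.73 to 9.92 CPM in the control libraries. Of these, Pmp2 had no read in any library. The defining markers of central myelin, Mbp, Mog and Mag, were present in every library at the levels that follow.

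Mbp had the highest level of the 34 members, at 4751 ± 713 FPKM in ethanol and 5429 ± 346 FPKM in control (SD, n = 3 each). Cnp, an enzyme bound to the inner myelin membrane, followed at 548 ± 107 FPKM in ethanol and 546 ± 51.5 FPKM in control. Trf, the iron carrier transferrin, averaged 448 ± 79.4 FPKM in ethanol and 429 ± 52.6 FPKM in control, and the order of Cnp and Trf was not separated beyond their spread. The median member stood at 66.8 FPKM. The lowest levels by the mean over all 6 libraries were those of Adamts4, a protease that cleaves matrix proteoglycans, at 15.8 ± 2.12 FPKM in ethanol and 17.5 ± 1.67 FPKM in control, and of Tmem125, a membrane protein, at 17.5 ± 4.68 and 17.9 ± 2.03 FPKM in ethanol and control. Myrf and Sox10 lay at 24.4 and 58.2 FPKM over the 6 libraries, each below the median member.

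**Figure D1:**
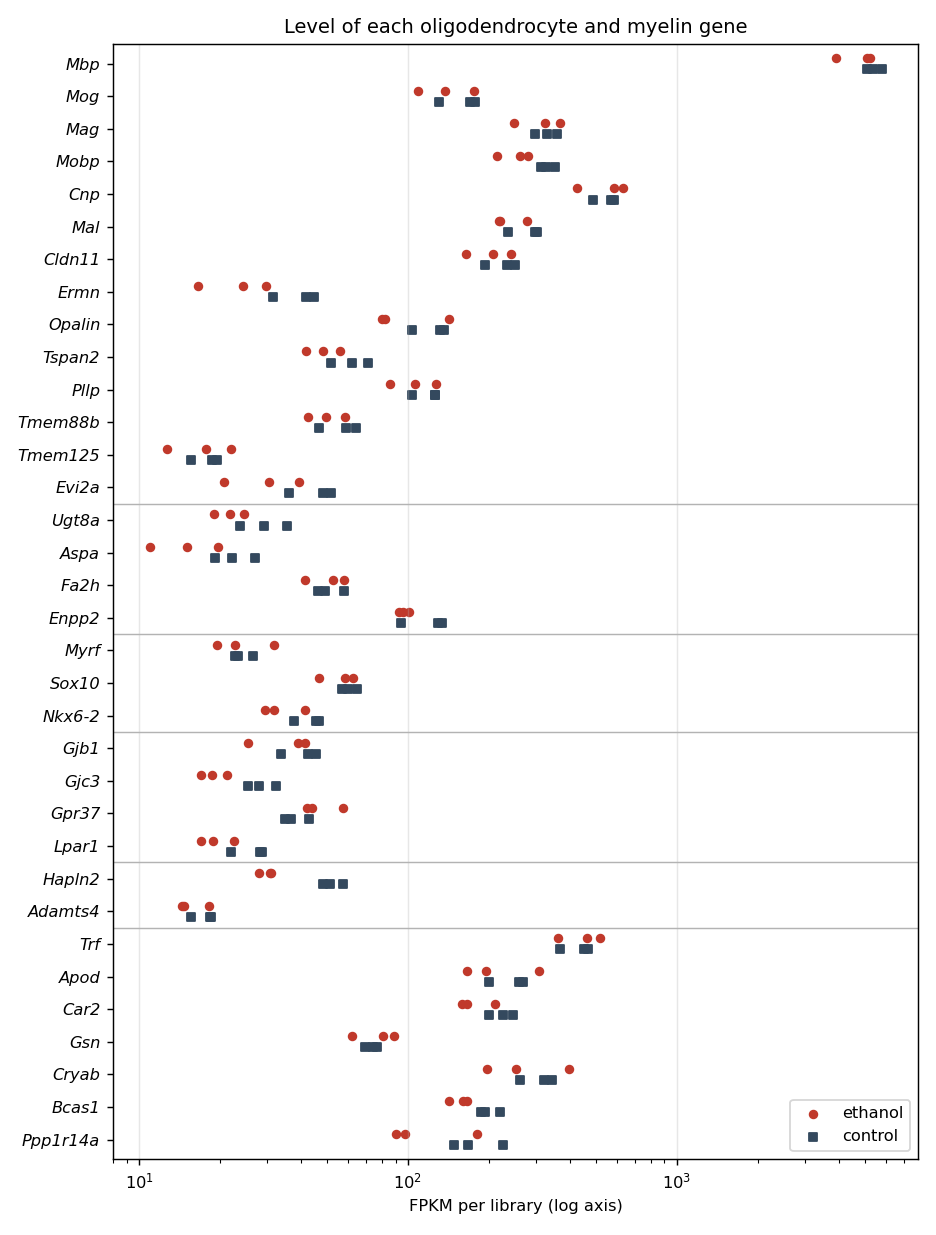
FPKM of each of the 34 members in every library on a log axis, ethanol as circles above and control as squares below, with horizontal lines between the role groups. Mbp, at 4751 FPKM in ethanol and 5429 FPKM in control on average, lies well to the right of all other members.

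The comparison of ethanol with control asks whether oligodendrocyte and myelin transcripts differed at the end of the drinking period. No member passed the edgeR quasi-likelihood test after Benjamini-Hochberg adjustment over the 15774 genes tested, as no gene did at all (0% called higher and 0% called lower). The smallest adjusted p among the members was 0.419. Before adjustment, 1681 genes had a p under 0.05 in edgeR and 1751 in limma-voom, which also called 0 genes after it, while DESeq2 called 144. Among the members, 3 of 34 stood lower and 1 of 34 higher in ethanol at an unadjusted p under 0.05 in edgeR, or 8.82% and 2.94%, where 5.34% of all genes stood lower and 5.31% higher by the same rule. All ethanol libraries lay below all control libraries in 4 members (11.8%, against 8.41% of all genes) and above them in 1 member (2.94%, against 9.35%). On the FPKM scale, 5 members lay wholly below (13.3% of all genes did) and 0 wholly above (5.03% of all genes did). The counts among the members are thus small and near the background. The median log2 fold change of the members was -0.08, with 26 below 0 and 8 above, and that of all tested genes was 0.02, with 47.3% below 0. Dropping ethanol 3 raised the members' median to 0.06, and no other alternative put it above 0. It fell to -0.16 when ethanol 1 was dropped and to -0.25 when ethanol 2 was. With control 1, control 2 or control 3 dropped it stood at -0.20, -0.03 or -0.04. Sample weights in limma-voom gave -0.21, and total counts only gave -0.17.

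**Figure D2:**
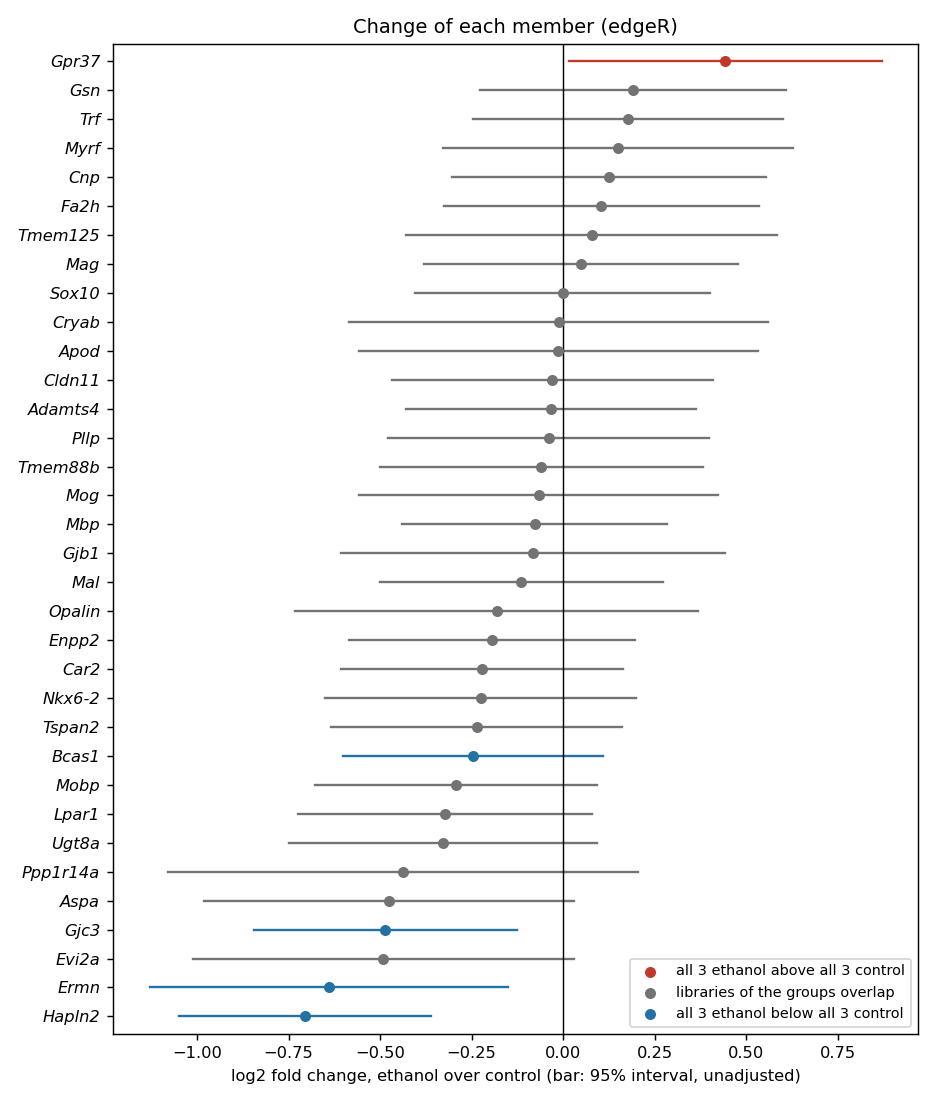
The log2 fold change of each member, ethanol over control, from edgeR, with its unadjusted 95% interval, and colour for members whose groups do not overlap in CPM. Most points lie within 0.25 of 0. Hapln2 at -0.70, Ermn at -0.64, and Evi2a and Gjc3 at -0.49 stand at the lower end. Gpr37 at 0.44 stands at the upper end.

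Hapln2, a link protein that ties hyaluronan and proteoglycans together at the nodes of Ranvier, had the smallest unadjusted p of the members. It had 75.6, 80.8 and 75.7 CPM in the ethanol libraries, against 123, 115 and 139.6 CPM in the control libraries. The groups did not overlap, and the ethanol libraries differed by less among themselves than the control libraries did. Its log2 fold change was -0.70 (SE 0.15, 95% interval -1.05 to -0.36), with an unadjusted p of 0.00113 and an adjusted p of 0.419 in edgeR. DESeq2 called it lower (adjusted p = 0.00873), as it did 0.59% of all genes, and limma-voom did not (adjusted p = 0.352). Without ethanol 2, edgeR called it too (log2 fold change -0.75, adjusted p = 0.0448). Over all alternative fits its log2 fold change lay between -0.79 and -0.63, and its adjusted p between 0.00873 and 0.933 (edgeR, limma-voom and DESeq2). Relative to Mog, the myelin oligodendrocyte glycoprotein at the outer face of the sheath, Hapln2 stood at 0.245, 0.212 and 0.340 in ethanol and 0.472, 0.329 and 0.406 in control, where the groups overlap. This ratio was computed after the values had been seen.

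Adamts4, the other member of the extracellular matrix group, had a log2 fold change of -0.03 (95% interval -0.43 to 0.36). The fold changes of the matrix pair thus differed in size, a difference that was not tested.

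Gjc3 encodes a connexin, a gap junction protein of oligodendrocytes. It had 78.7, 83.3 and 89.3 CPM in ethanol and 104, 132 and 116 CPM in control, again without overlap. Its log2 fold change was -0.49 (SE 0.16), with an unadjusted p of 0.0131 and an adjusted p of 0.439 in edgeR. Gjb1, the connexin mutated in an inherited human neuropathy, had overlapping groups and a log2 fold change of -0.08. Gpr37, an orphan receptor that restrains oligodendrocyte maturation in mice, stood higher, at 243, 178 and 162 CPM in ethanol and 130.5, 159 and 139 CPM in control. Ethanol 1 was the highest library and ethanol 3 lay just above control 2. Its log2 fold change was 0.44 (SE 0.19), with an unadjusted p of 0.0435, and was 0.25 without ethanol 1. On the FPKM scale its groups overlapped. The lysophosphatidic acid receptor Lpar1 had 74.5, 95.4 and 75.5 CPM in ethanol and 86.1, 109 and 112 CPM in control, and the groups overlapped through ethanol 2.

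Promoter windows are shown for the members with the smallest unadjusted p, Hapln2, Gjc3, Ermn and Gpr37, to set their sequences beside their values. Each runs from 250 bases before to 50 after the RefSeq start (GRCm38.p6, 5′ to 3′ on the gene's strand). The deposited loci of Gjc3 and Ermn end at 137962959 and 58052752, so their windows lie wholly upstream of the measured transcripts. Capitals mark matches to a SOX core (ACAAAG or ACAATG) or to a MYRF core (CTGGCAC or CTGGTAC) on either strand; the cores do not overlap each other.
Hapln2 (minus strand, chr3:88027462-88027761): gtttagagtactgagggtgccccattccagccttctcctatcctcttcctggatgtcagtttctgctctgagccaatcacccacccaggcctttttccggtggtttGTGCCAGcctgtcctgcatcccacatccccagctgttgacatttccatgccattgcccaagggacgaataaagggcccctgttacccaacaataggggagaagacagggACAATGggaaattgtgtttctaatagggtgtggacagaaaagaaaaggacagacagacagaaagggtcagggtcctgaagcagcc
Gjc3 (minus strand, chr5:137963049-137963348): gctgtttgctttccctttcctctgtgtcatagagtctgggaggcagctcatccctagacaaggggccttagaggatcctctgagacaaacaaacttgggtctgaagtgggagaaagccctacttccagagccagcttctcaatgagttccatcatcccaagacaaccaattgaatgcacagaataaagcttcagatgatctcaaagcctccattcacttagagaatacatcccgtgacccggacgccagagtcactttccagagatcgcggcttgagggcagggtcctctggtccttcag
Ermn (minus strand, chr2:58052815-58053114): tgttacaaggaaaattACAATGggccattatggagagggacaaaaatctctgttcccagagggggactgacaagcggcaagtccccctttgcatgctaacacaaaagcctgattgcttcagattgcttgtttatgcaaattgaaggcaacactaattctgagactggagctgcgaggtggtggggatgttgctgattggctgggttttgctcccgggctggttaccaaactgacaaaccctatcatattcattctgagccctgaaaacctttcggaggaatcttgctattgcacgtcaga
Gpr37 (minus strand, chr6:25689931-25690230): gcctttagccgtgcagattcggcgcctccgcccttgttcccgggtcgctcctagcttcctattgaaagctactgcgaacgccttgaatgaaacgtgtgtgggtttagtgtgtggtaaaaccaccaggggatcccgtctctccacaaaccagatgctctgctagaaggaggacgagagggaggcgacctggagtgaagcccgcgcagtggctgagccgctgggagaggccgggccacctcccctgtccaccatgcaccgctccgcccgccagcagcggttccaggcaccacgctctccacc
The Hapln2 window held 1 SOX and 1 MYRF match, the Ermn window 1 SOX match, and the Gjc3 and Gpr37 windows neither. RefSeq windows were matched for 23 of the 34 members, 33 windows in all. A SOX match was present in 42.4% of them and in 28.6% of the 32851 windows of all genes, and a MYRF match in 24.2% and 7.10%. Windows of the same gene are not independent. By gene, 11 of the 23 members had a SOX match and 7 a MYRF match, and no share by gene over all genes is given. A match describes letters in the window and no binding.

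**Figure D3:**
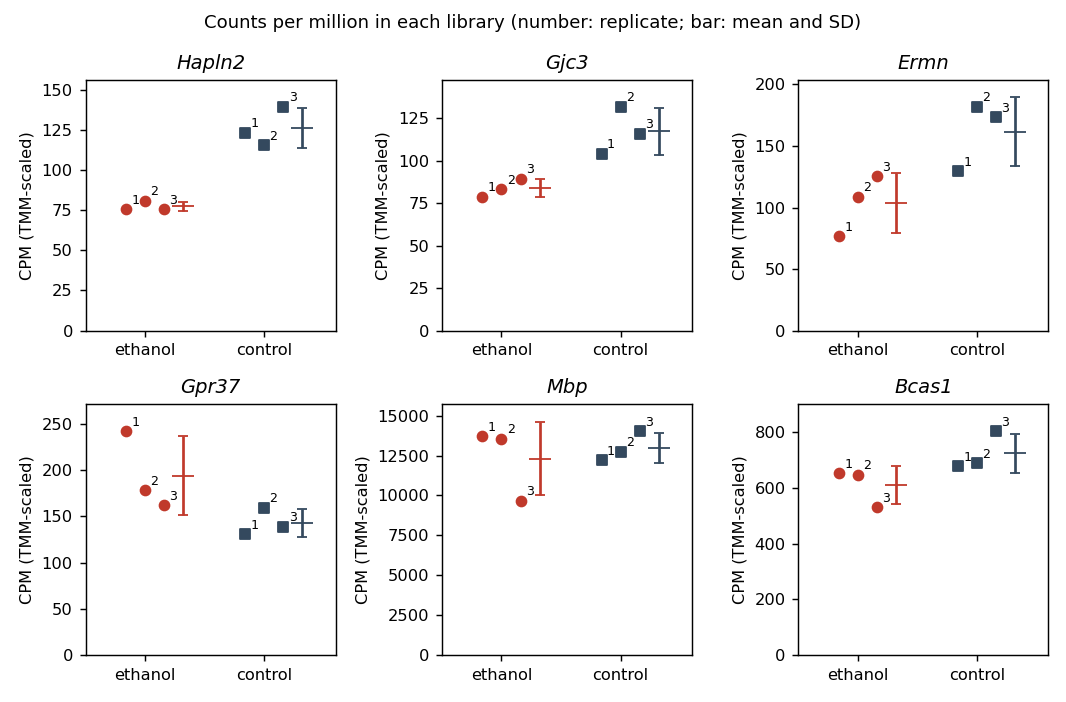
CPM of 6 genes in each library, ethanol left of control, with replicate numbers beside the points and mean and SD as bars. Hapln2, Gjc3, Ermn and Bcas1 have every ethanol library below every control library, Gpr37 has them above, and Mbp overlaps with ethanol 3 lowest at 9671 CPM.

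The structural proteins of myelin showed mostly small differences. Mbp stood at 13730, 13550 and 9671 CPM in ethanol and 12209, 12749 and 14047 CPM in control. Ethanol 1 and ethanol 2 lay within the control range and ethanol 3 below it. The log2 fold change was -0.08 with a 95% interval of -0.44 to 0.28, so true differences within that interval are not excluded with 3 samples per group. Mog had 309, 381 and 223 CPM in ethanol and 261, 351 and 344 CPM in control, and Mag, an adhesion protein of the innermost myelin wrap, had 1049, 1145 and 732 CPM in ethanol and 852, 939.6 and 1037 CPM in control. In both genes ethanol 2 was the highest library and ethanol 3 the lowest. Cnp had 1875, 1937 and 1244 CPM in ethanol and 1379, 1595 and 1664 CPM in control. Mal, a raft protein of myelin membrane, had 800.3, 975 and 732 CPM in ethanol and 767, 974 and 972 CPM in control. Both overlapped in the same way, with ethanol 3 lowest.

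Mobp, a basic protein of compact myelin, departed from that order. It had 1048, 716 and 898 CPM in ethanol and 1027, 1076 and 1158 CPM in control, with ethanol 2 and not ethanol 3 as its lowest library. Its log2 fold change was -0.29 (SE 0.17, unadjusted p = 0.121 in edgeR, fitted over all genes). Ermn, a cytoskeletal protein of the late sheath, had 76.8, 109 and 126 CPM in ethanol and 129, 182 and 173 CPM in control. The groups did not overlap, but ethanol 3 lay just under control 1. Its log2 fold change was -0.64 (SE 0.22), with an unadjusted p of 0.0158 and an adjusted p of 0.439 in edgeR, and was -0.29 once trends with GC content and length were removed. Evi2a, a membrane protein gene inside an intron of Nf1, had 43.8, 76.8 and 58.5 CPM in ethanol and 66.7, 94.4 and 90.6 CPM in control, with overlap between ethanol 2 and control 1. Since its reads cannot be separated with certainty from those of Nf1, which overlaps it, its value is uncertain. Tspan2, a tetraspanin, had 234, 301 and 247 CPM in ethanol and 258, 351 and 312 CPM in control. The other structural and membrane members, Cldn11 (a tight junction claudin of the sheath), Opalin, Pllp, Tmem88b and Tmem125, had overlapping groups and log2 fold changes from -0.18 to 0.08.

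The lipid enzymes likewise overlapped between groups. Ugt8a, which makes the galactolipids of myelin, had 103, 86.6 and 107 CPM in ethanol and 99.6, 149 and 124 CPM in control. Its log2 fold change of -0.33 turned to 0.09 when GC and length trends were removed. Aspa, which splits N-acetylaspartate into acetate and aspartate, had 22.2, 38.2 and 27.7 CPM in ethanol and 34.4, 47.9 and 40.1 CPM in control, and its log2 fold change of -0.47 became -0.12 under the same removal. Fa2h, a fatty acid hydroxylase, and Enpp2, which makes lysophosphatidic acid, had log2 fold changes of 0.10 and -0.19. Of the transcription factors, Sox10 had 224, 199.6 and 152 CPM in ethanol and 181, 189 and 207 CPM in control, with a 95% interval of the log2 fold change from -0.40 to 0.40. Myrf had 235, 139 and 153 CPM in ethanol and 148, 172 and 154 CPM in control, where ethanol 1 alone stood above the control range. Nkx6-2, a homeobox factor, had a log2 fold change of -0.23, and its reads may mix with those of Inpp5a, which overlaps it. Its variant 2, a noncoding RefSeq record, was assigned 99.2% to 99.6% of the gene's FPKM. The coding variant 1 had 12 to 17 reads in a library, so the value describes the noncoding record.

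Among the carriers, enzymes and chaperones, Bcas1, a cytoplasmic protein that is abundant in oligodendrocytes laying down myelin, was the one member without overlap. It had 653, 647 and 530.1 CPM in ethanol and 678, 690 and 805 CPM in control, a log2 fold change of -0.25 (SE 0.16), and an unadjusted p of 0.151 in edgeR, fitted over all genes. Trf had 1430, 1529 and 1014 CPM in ethanol and 1008, 1262 and 1244 CPM in control. Apod, a lipid carrier of the lipocalin family, had 531, 799 and 409 CPM in ethanol and 484, 640.3 and 631 CPM in control. Cryab, a small heat shock protein, had 321, 478 and 228 CPM in ethanol and 293, 354 and 389 CPM in control. In these 3 genes the ethanol libraries ranged beyond the control libraries on at least 1 side. Ppp1r14a, an inhibitor of myosin phosphatase, had 68.5, 122 and 57.7 CPM in ethanol and 91.9, 103 and 142 CPM in control, and its log2 fold change of -0.44 lay between -0.84 and -0.23 when 1 library was left out. Car2, a carbonic anhydrase, and Gsn, the actin-severing protein gelsolin, had log2 fold changes of -0.22 and 0.19.

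The largest common feature of the members was a difference between libraries rather than between groups. Ethanol 3 was the lowest library for 21 of 34 members and held 0 members above their own mean over the 6 libraries. In the other libraries, 17 members stood above their mean in ethanol 1 and 24 in ethanol 2, against 6 in control 1, 29 in control 2 and 30 in control 3. Over all tested genes, 47.8% to 52.3% stood above their mean in each library. The median member deviated by -0.00, 0.13 and -0.31 on the log2 scale in ethanol 1, ethanol 2 and ethanol 3, against -0.14, 0.15 and 0.16 in control 1, control 2 and control 3. Summed over the 34 members, the libraries held 25981, 26631 and 19151 CPM in ethanol and 22793, 25368 and 27013 CPM in control. As a share of all reads in the table, this was 2.31% ± 0.30 in ethanol and 2.58% ± 0.20 in control (SD, n = 3 each), a difference smaller than the range within either group. Within-group spread was larger in ethanol, with a median member SD of 0.32 in ethanol and 0.18 in control on the log2 scale, and 28 of 34 members (82.4%) had the larger SD in ethanol. The same held for 74.1% of all genes.

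**Figure D4:**
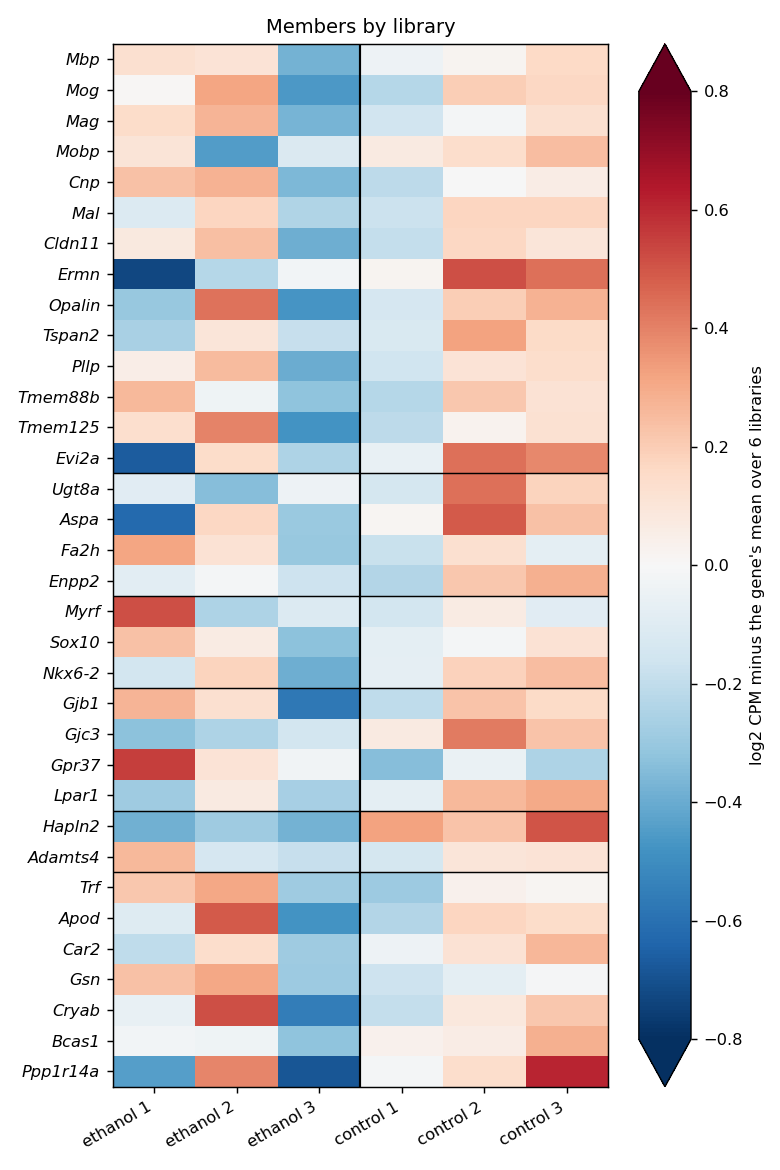
Deviation of each member's log2 CPM from its own mean over the 6 libraries, ethanol libraries left of the vertical line, members grouped by role. The column of ethanol 3 is blue throughout (0 of 34 members above their mean). Hapln2, Gjc3, Ermn, Bcas1, Ugt8a and Enpp2 are below their mean in all 3 ethanol libraries.

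Most members followed this common profile across libraries. The correlation of a member's log2 CPM with the median profile of the other members over the 6 libraries had a median of 0.76 and exceeded 0.8 in 14 members, led by Mog at 0.97, Pllp at 0.95 and Cldn11 at 0.95. It was lowest in Myrf at 0.02, Gpr37 at 0.04, Mobp at 0.10, Ermn at 0.24, Ugt8a at 0.28, Gjc3 at 0.33 and Hapln2 at 0.37. These are descriptions over 6 points that share library and depth. The members whose groups did not overlap, Bcas1 at 0.76 apart, were among those that tracked the other myelin genes least. This follows in part from how they were picked, since the median member's profile itself overlapped between the groups.

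GC content of the members' longest GENCODE transcript ranged from 38.0% to 64.3%, with a median of 51.0%, and 49.9% was the median of all tested genes with a value. Across the 34 members, the log2 fold change ran with GC content at a Spearman rho of 0.45, where genes share their libraries and are not independent, and across 15305 genes at 0.21. The low-GC members Ugt8a (38.0%), Ermn (38.0%) and Aspa (38.5%) moved towards 0 or past it once the trends were removed, to 0.09, -0.29 and -0.12. Gjc3 (43.3%) moved less, to -0.37, and Hapln2 (57.4%) stood at -0.75 after removal. The median over the members was -0.10 after removal, that over all genes 0.04.

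Transcript shares were compared in members with at least 2 transcripts above 5% of the gene's FPKM on average. Of the 27 such transcripts in 11 members, 2 did not overlap between the groups, and both belonged to Cnp, whose transcripts mirror each other. The share without overlap among the transcripts of all genes is not given here, so this count has no background. Variant 1 of Cnp, the longer transcript, took 43.3%, 44.9% and 43.0% of the gene's FPKM in ethanol and 40.1%, 40.7% and 39.6% in control. That is 43.7% ± 1.00 against 40.1% ± 0.58 (SD, n = 3 each), with an exact two-sided permutation p of 0.10, the smallest that 3 against 3 samples can give. After adjustment over the 27 transcripts, which are not independent within a gene, it was 1.00. Among the transcripts not compared, the minor variant 2 of Tspan2 took 9.42%, 4.27% and 4.02% in ethanol and 1.07%, 2.31% and 0.44% in control, without overlap, and its variant 1 the remainder. Variant 8 of Mbp, at 0.127% to 0.219% in ethanol and 0.0974% to 0.114% in control, did not overlap either. Both were picked from the transcripts not compared after their values had been seen, and they too have no background. The major Mbp transcript, variant 6, took 57.0%, 46.2% and 56.8% in ethanol and 51.6%, 51.4% and 47.0% in control, and variant 4 took 23.6%, 33.0% and 21.6% in ethanol and 30.5%, 28.2% and 32.6% in control. In both, ethanol 2 lay just beyond the control range, on the side away from the other ethanol libraries, so that the groups overlapped. These shares come from estimated reads split among transcripts that share most exons, and they carry that uncertainty.

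Control 2 stood apart in the shares, with 10 of 71 member transcripts more than 2 percentage points outside the range of the other libraries, against 2, 5 and 2 in ethanol 1, ethanol 2 and ethanol 3, 2 in control 1 and 5 in control 3. Its Mag reads were assigned to variant 7 at 41.2%, where the other 5 libraries had 52.1% to 56.5%. Variant 1 of Lpar1 took 12.5% in control 2 and 0.00% to 2.42% in the other libraries. Control 2 also had the fewest genes with reads. The summed Mag counts entered the gene comparison above, where control 2 lay between the other control libraries.

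**Figure D5:**
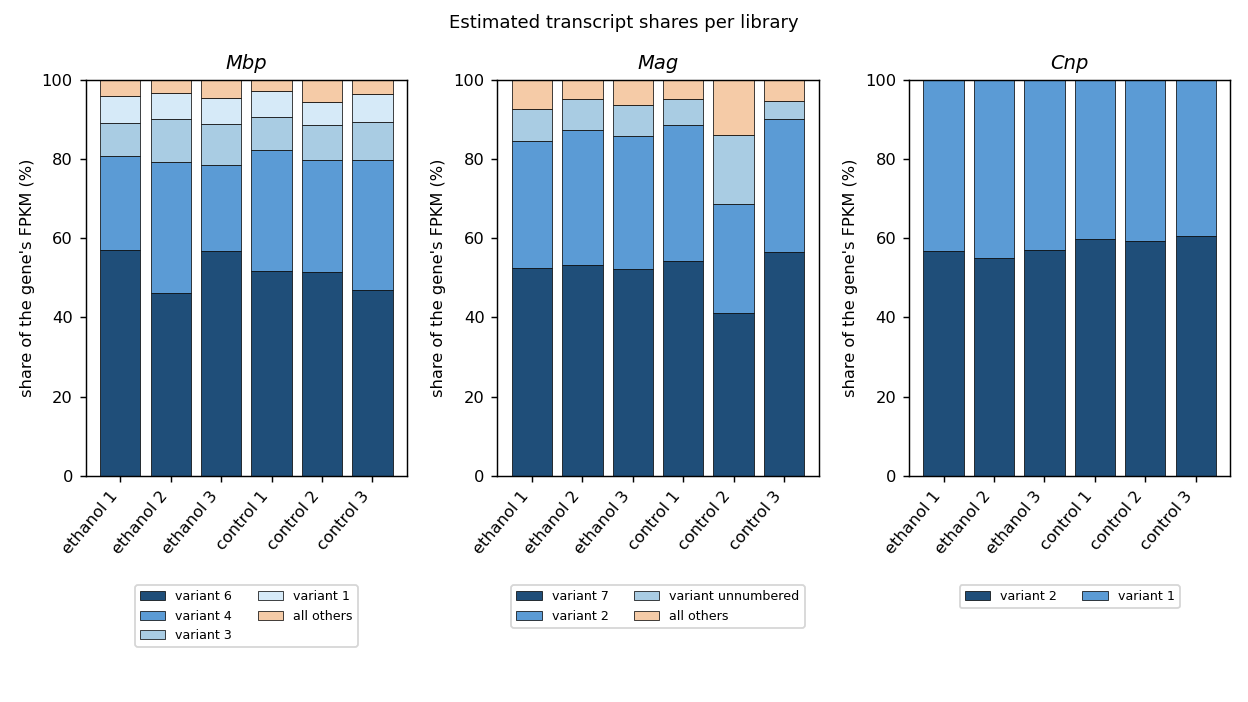
Share of the gene's FPKM taken by each transcript above 5% on average in Mbp, Mag and Cnp, with ethanol libraries left of control libraries and the remaining transcripts pooled. Cnp variant 2 lies at 55.1% to 57.0% in ethanol and 59.3% to 60.4% in control, and Mag differs in control 2.

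Other myelin and mature oligodendrocyte genes gave a like picture. Of 38 genes, 0 passed in either direction after adjustment, 25 had a log2 fold change below 0, the median was -0.06, and 3 stood lower and 0 higher at an unadjusted p under 0.05. Plxnb3, a semaphorin receptor, and Carns1, which makes carnosine, had log2 fold changes of -0.60 and -0.54. Of 17 genes of myelin sphingolipid synthesis and breakdown, 0 passed, 11 were below 0 and the median was -0.06. The lysosomal genes Smpd1 and Psap, a sphingomyelinase and a saposin precursor, stood at log2 fold changes of 0.43 and 0.34, and Elovl7, a fatty acid elongase, at -0.38. Of 17 genes of the node of Ranvier and its flanks, 0 passed, with a median of -0.05. Cntnap2, a neuronal protein of the juxtaparanode, Tnr, a matrix glycoprotein, and Nrcam, a cell adhesion molecule, had log2 fold changes of 0.60, 1.28 and 0.48.

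Genes of earlier stages of the lineage were described in the same way. Of 16 genes of newly formed oligodendrocytes 0 passed, 9 were above 0, and the median was 0.02, the same to 2 decimals as that of all tested genes. Gpr17, a receptor of cells on the way to maturity, had 148, 97.2 and 113 CPM in ethanol and 81.8, 82.0 and 73.7 CPM in control, a log2 fold change of 0.59. Enpp6, a choline phosphodiesterase of cells starting to myelinate, had 20.8, 20.0 and 20.3 CPM in ethanol and 21.7, 37.7 and 29.0 CPM in control, a log2 fold change of -0.53, and the noncoding RNA 1700047M11Rik one of -0.73. Of 13 precursor genes 0 passed in edgeR, 9 were above 0 and the median was 0.44. At an unadjusted p under 0.05 in edgeR, 5 precursor genes stood higher and 1 lower. Among the newly formed oligodendrocyte genes, 1 stood higher and 2 lower by the same rule. Over all genes, 5.31% stood higher and 5.34% lower. Cacng4, an auxiliary AMPA receptor subunit, Pdgfra, the growth factor receptor of precursors, and Sox6, a factor that keeps cells immature, had log2 fold changes of 1.00, 0.59 and 0.44. DESeq2 called Cacng4 higher. Without ethanol 2, edgeR called 6 genes of all the lists outside the members higher, namely Cacng4, Pdgfra, Ptprz1, Tnr, Xylt1 and the astrocyte marker Slc1a3. Over all genes, that fit called 201 higher and 10 lower. The difference between the precursor genes and the 34 members was not tested.

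Markers of other cells in the dissected tissue also differed between libraries. The 5 cortical excitatory neuron markers summed to 18.2 to 71.4 CPM in ethanol and 73.5 to 328 CPM in control, highest in control 1, with 4 of 5 below 0 in log2 fold change. The 8 striatal projection neuron markers summed to 1497 to 3389 CPM in ethanol, highest in ethanol 2, and 1552 to 1847 CPM in control, with 7 of 8 above 0. The 9 astrocyte markers summed to 3693 to 4592 CPM in ethanol and 3225 to 3566 CPM in control, with 8 of 9 above 0. The 9 microglia markers summed to 519 to 864 CPM in ethanol and 498 to 641 CPM in control, with 7 of 9 above 0. The 6 endothelial markers summed to 165 to 179.8 CPM in ethanol and 169 to 206 CPM in control, with 3 of 6 above 0. The 5 markers of all neurons summed to 2956 to 3357 CPM in ethanol and 3407 to 3676 CPM in control, with 4 of 5 below 0. The 6 meningeal fibroblast markers summed to 40.0 to 47.2 CPM in ethanol and 48.3 to 85.7 CPM in control, with 6 of 6 below 0. The 4 choroid plexus markers stayed between 5.29 and 6.09 CPM in ethanol and between 5.72 and 403 CPM in control, the last in control 3. No marker in these lists passed in edgeR, while DESeq2 called Slc1a3 (astrocyte) and Drd2 (projection neuron) higher and Slc13a4 (fibroblast) and Kcnj13 (choroid plexus) lower. Their part in the differences of Hapln2, Gjc3 and Ermn was not tested.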

How the data were processed

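Messenger RNA libraries of 6 samples (3 ethanol, 3 control, by title) were analysed. The authors deposited 1 table with estimated read counts and FPKM per RefSeq transcript, per the file headers. The deposited estimated counts equalled FPKM times length times library size rounded up, within 0.05 reads, for 100% of checked transcripts. The submitters' processing notes name mm10 and bcl2fastq; the sources used here give no aligner, counter or strandedness, so overlapping genes and shared exons are uncertain. The 36780 transcripts were summed to 24532 genes by gene identifier (10 identifiers had 2 symbols).

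Genes were filtered with filterByExpr (minimum count 10), scaled with TMM and tested with the two-sided quasi-likelihood functions (glmQLFit, glmQLFTest) of edgeR 4.0.16, run in R 4.3.3 on a model of group alone, threshold 0.05 after Benjamini-Hochberg adjustment over 15774 genes. SE is the log2 fold change over the square root of F. DESeq2 1.42.0, limma 3.58.1 (voom) and the other settings of the closing section were alternatives. Removal of GC and length trends used a loess fit per library and GENCODE M21 transcripts, matched for 97.0% of tested genes. Shares of transcripts above 5% on average, in members with at least 2 such transcripts, were tested with exact permutation tests. The gene test was tested on simulated data. Depth set a floor of 3 reads at 0.0478 to 0.0820 CPM, which covers counting error only.

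The members, lists and tests were chosen with earlier results of these data known. Values in every library are given for members called in edgeR or an alternative on all samples, the 12 with the smallest unadjusted p, the 8 with the highest FPKM, and Mbp, Mog, Mag, Mobp, Cnp, Sox10 and Myrf. In each other list the 3 genes with the smallest p are named, except that 1 is not reported here. No pairing by replicate number was assumed in the main fit. Figures used matplotlib 3.10.9 in Python 3.11.15.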

Additional observations from a re-analysis of the deposited data

How the results depend on the processing

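Each member had over 1000 reads in every library. The replicate block gave 0 genes and 0 members called, as did the fit without it. Same-numbered samples correlated in their deviations at 0.15, -0.03 and -0.02, and 1 of 3 numbers matched best with itself, so no pairing was assumed. DESeq2 called 144 genes, of them 1 member (Hapln2) and 5 genes of the other lists. Fits without 1 library called 0 to 211 genes, 0 to 1 members and 0 to 6 genes of the other lists, highest without ethanol 2 (201 genes higher, 10 lower); without control 1 there was 1. Isoform shares without overlap numbered 3 to 8 without 1 library, and 4 had same-numbered differences of 1 sign in the replicate block. Of 22 members given by library, 13 kept their direction in all 14 alternatives. The other 9, none of them called in any fit, changed sign in at least 1 alternative, and Ugt8a was the one with a log2 fold change as large as -0.33. With GC and length trends removed, log2 fold changes were -0.017 for Mag, 0.086 for Ugt8a, -0.024 for Myrf, 0.0061 for Apod and 0.013 for Cryab. With limma-voom sample weights they were -0.11 for Mag and -0.026 for Cnp, with total counts only -0.043 for Mag, and with no low-count filter 0.011 for Sox10. Without 1 library, log2 fold changes lay between -0.16 and 0.073 for Mbp, -0.27 and 0.12 for Mog, -0.095 and 0.22 for Mag, -0.00015 and 0.31 for Cnp, -0.12 and 0.28 for Myrf, -0.13 and 0.14 for Sox10, -0.33 and 0.19 for Apod, and -0.34 and 0.21 for Cryab. The causes were not tested.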
